A study of Homo sapiens with 6 samples.

Results

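The genes described are 10 components of the human small RNA pathway: DROSHA, DGCR8, XPO5, DICER1, TARBP2, PRKRA and the Argonaute genes AGO1, AGO2, AGO3 and AGO4. They were chosen by name, from their role, with earlier results of these data known. All 10 were found by symbol among the 19960 genes of the deposited table. The RNA came from MKN28, an established gastric cancer cell line, kept in serum-containing medium and made to carry a plasmid stably. The 3 shSCR libraries are from cells with a scrambled control hairpin, and the 3 shLTBP1 libraries from cells with a hairpin against LTBP1, which encodes a binding protein of latent TGF-beta. Both groups therefore make a short hairpin RNA. Whether each stable line was a clone or a pool, and how many hairpin designs stand behind the shLTBP1 label, is not given in the sources used here, and no label says that libraries of a group are separate cultures. What the p-values gauge is thus the scatter among libraries, possibly only technical.

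In this pathway the nuclear Microprocessor, made of the RNase III enzyme DROSHA and its RNA-binding partner DGCR8, cuts hairpins out of primary microRNA transcripts. Exportin-5 (XPO5) carries them to the cytoplasm, where DICER1, aided by the double-stranded RNA-binding proteins TARBP2 and PRKRA, trims them to short duplexes, and an Argonaute protein keeps one strand as its guide to target mRNAs. A plasmid-encoded hairpin enters the same route at the export step, so these genes serve the hairpins of both groups. MicroRNAs themselves are not among the values used here.

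Values are read counts per gene that the authors normalized with DESeq2, and fold changes are on the log2(value + 1) scale, shLTBP1 minus shSCR. All 10 genes had a mean of at least 10 and were tested with limma. LTBP1 stood at 5.92% of its control mean in shLTBP1 (log2 fold change -4.07 ± 0.12, SE), and an exact two-sided permutation test of 3 against 3 libraries gave p = 0.1, the smallest it can give. LTBP1 lies on chromosome 2, where its 50 nearest tested neighbours had a median log2 fold change of -0.57. With that median subtracted LTBP1 was at -3.50. Totals of normalized counts per library ran from 30479879 to 30941103 and do not give read depth. Of 10 gastric epithelial markers, 9 reached a mean of 10; in limma 3 rose and 4 fell. Their sum lay between 335118 and 355717 in shSCR and between 299629 and 323870.0 in shLTBP1. Summed leukocyte markers lay between 11.5 and 18.2 in shSCR and between 13.7 and 19.1 in shLTBP1, with CD3D, MS4A1 and TYROBP at 0. Summed endothelial markers lay between 35.6 and 52.1 in shSCR and between 23.9 and 33.0 in shLTBP1, with CLDN5 at 0. Of 8 fibroblast markers COL1A1 and LUM reached a mean of 10 and THY1 was at 0, and their sum lay between 1108 and 1343 in shSCR and between 710.2 and 937 in shLTBP1. The part of these markers in the results was not tested.

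The Argonaute genes AGO1, AGO2 and AGO3, the export receptor gene XPO5 and PRKRA were lower in shLTBP1, and the Microprocessor genes were not. AGO2 was at 53.7% of its shSCR mean, AGO3 at 65.4%, PRKRA at 66.7%, XPO5 at 70.9% and AGO1 at 74.2%. DGCR8 and AGO4 rose slightly, to 115% and 118%. DROSHA, DICER1 and TARBP2 did not pass. In bulk RNA, fewer cells with a transcript and less of it per cell cannot be told apart. In all, 5 of the 10 fell and 2 rose at a limma adjusted p under 0.05, in a comparison where 53.1% of 12789 tested genes passed, 26.8% as falls and 26.3% as rises. The median log2 fold change of the 10 genes was -0.36, and that of all tested genes 0.00. The 7 genes that passed were also those whose groups did not overlap, which was so for 60.8% of all tested genes (30.6% lower and 30.2% higher in shLTBP1).

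The promoter windows of the 3 Argonaute genes that share a cluster on chromosome 1, and of XPO5, are shown because AGO1, AGO3 and XPO5 fell while AGO4 rose. They are RefSeq windows on GRCh38.p14, each running from 250 bases before a transcript start to 50 after it. Capitals mark every match, on either strand, to one of the motifs searched. AGO4 is at chr1:35807766-35808065, plus strand, AGO1 at chr1:35882959-35883258, plus strand, AGO3 at chr1:35930855-35931154, plus strand, and XPO5 at chr6:43575989-43576288, minus strand.
AGO4: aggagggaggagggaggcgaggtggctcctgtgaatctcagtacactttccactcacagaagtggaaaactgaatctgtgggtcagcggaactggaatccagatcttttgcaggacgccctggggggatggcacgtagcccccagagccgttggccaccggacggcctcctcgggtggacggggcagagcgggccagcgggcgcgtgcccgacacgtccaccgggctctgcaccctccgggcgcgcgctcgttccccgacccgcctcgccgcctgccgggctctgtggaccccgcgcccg
AGO1: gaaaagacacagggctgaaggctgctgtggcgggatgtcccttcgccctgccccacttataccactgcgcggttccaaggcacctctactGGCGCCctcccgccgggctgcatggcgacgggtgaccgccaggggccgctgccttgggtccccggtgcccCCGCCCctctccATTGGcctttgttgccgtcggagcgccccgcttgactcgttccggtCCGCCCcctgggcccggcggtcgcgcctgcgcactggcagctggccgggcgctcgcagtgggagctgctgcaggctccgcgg
AGO3: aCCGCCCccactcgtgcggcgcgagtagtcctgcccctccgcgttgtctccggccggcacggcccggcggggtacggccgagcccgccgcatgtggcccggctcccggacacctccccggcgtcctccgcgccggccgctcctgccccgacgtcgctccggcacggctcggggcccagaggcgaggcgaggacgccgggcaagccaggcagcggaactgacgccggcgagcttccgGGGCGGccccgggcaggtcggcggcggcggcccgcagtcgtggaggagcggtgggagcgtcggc
XPO5: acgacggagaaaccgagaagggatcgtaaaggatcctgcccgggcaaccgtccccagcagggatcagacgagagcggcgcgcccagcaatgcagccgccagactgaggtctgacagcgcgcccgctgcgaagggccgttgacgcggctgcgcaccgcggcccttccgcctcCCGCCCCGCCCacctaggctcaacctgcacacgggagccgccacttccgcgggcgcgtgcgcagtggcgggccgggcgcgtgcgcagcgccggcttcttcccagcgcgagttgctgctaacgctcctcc

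All 4 windows are rich in CpG, with 29 CpG dinucleotides in AGO4, 30 in AGO1, 50 in AGO3 and 41 in XPO5, where the median over 35116 RefSeq promoter windows is 14. The GC box GGGCGG was found at 2 places each in the windows of AGO1, AGO3 and XPO5 (overlapping by 1 base in XPO5) and at none in that of AGO4; 45.0% of all windows of this length hold it. Of the other genes read, DGCR8, which rose, holds 3, and the windows of PRKRA, which fell, hold 4 to 6. Among genes that did not pass, DROSHA holds 2, the TARBP2 windows 0 to 2 and the DICER1 windows 0 or 1. Any link of the GC box to direction was not tested. The AGO1 window also holds 1 CCAAT box, spelled CCAAT and present in 34.6% of windows, and 1 GGCGCC, a motif bound by BMP-pathway SMAD proteins, present in 19.2%. Neither is particular to AGO1. GGCGCC was also found at 1 place each in DROSHA and DGCR8 and in some windows of TARBP2 and PRKRA. CCAAT was found at 3 places in DROSHA, at 4 in DGCR8 and in some windows of TARBP2, PRKRA and DICER1. The TATA box TATAAA, the MYC E-box CACGTG, the cyclic AMP response element TGACGTCA, the ETS motif CCGGAAGT and the SMAD palindrome GTCTAGAC had no match in these 4 windows (DROSHA holds 1 SMAD palindrome); 11.5%, 7.26%, 1.85%, 4.14% and 0.202% of all windows hold them. A match describes the letters in the window and no more.

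The Microprocessor genes differed little between groups. DGCR8 had normalized counts of 2795, 2960.2 and 2821 in shSCR and 3102, 3413 and 3339 in shLTBP1. All 3 shLTBP1 values were above all 3 shSCR values, and the means were 2859 ± 88.8 and 3285 ± 163 (SD, n = 3 each). Its log2 fold change was 0.20 ± 0.05 (SE; limma adjusted p = 0.0104). DGCR8 overlaps TRMT2A, a tRNA methyltransferase gene on the opposite strand, by 12 exonic bases, and TRMT2A rose from 3960.1 ± 153 to 5365 ± 281. DGCR8 also shares 526 exonic bases with an antisense gene that has no value here. DROSHA, the catalytic subunit, had normalized counts of 2066, 2022 and 1734 in shSCR and 1987, 2038 and 2112 in shLTBP1. The groups overlapped, with 1 low shSCR library, and the log2 fold change of 0.08 did not pass (limma adjusted p = 0.371; 95% interval -0.08 to 0.24). Per kilobase of exon, DGCR8 stood at 1.58 ± 0.147 times DROSHA in shSCR and 1.71 ± 0.0647 times in shLTBP1 (SD, n = 3 each), and these ratios overlapped between the groups.

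The DGCR8 transcript carries hairpins that the Microprocessor itself can cut, a known feedback of DROSHA on its partner. GENCODE places MIR3618 and MIR1306 inside DGCR8 exons, with 88 and 85 exonic bases shared. Their mature products are shown because a cut there takes the DGCR8 mRNA apart; capitals mark the seed.
hsa-miR-3618: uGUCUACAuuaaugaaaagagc
hsa-miR-1306-5p: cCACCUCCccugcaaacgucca
hsa-miR-1306-3p: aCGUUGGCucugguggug

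The 3 seeds differ from each other. A gene-level count does not tell cut from whole DGCR8 transcripts.

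XPO5, the export receptor for hairpins, fell. Its normalized counts were 5115, 5004 and 5427 in shSCR and 3721, 3550.4 and 3755 in shLTBP1. Every shLTBP1 library lay well below every shSCR library, and the spread inside each group was small, with means of 5182 ± 219 and 3676 ± 109.9 (SD, n = 3 each). The log2 fold change was -0.49 ± 0.05 (SE; limma adjusted p = 2.24e-05). XPO5 lies on the minus strand of chromosome 6, from 43522330 to 43576075 on GRCh38, and shares 348 exonic bases with POLR1C, an RNA polymerase subunit gene on the opposite strand. POLR1C was at 1175 ± 84.9 and 1220.4 ± 58.9 and did not pass (limma adjusted p = 0.53). Strand setting of the counting is not given in the sources used here, so reads from the shared stretch cannot be assigned with certainty.

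Of Dicer and its partners, PRKRA fell and the other two did not pass. PRKRA, which binds double-stranded RNA and also activates the kinase PKR, had normalized counts of 1600.1, 1698 and 1594 in shSCR and 1096, 1099 and 1068 in shLTBP1. The groups were far apart and tight, at 1631 ± 58.5 and 1088 ± 17.2 (SD, n = 3 each), with a log2 fold change of -0.58 ± 0.06 (SE; limma adjusted p = 1.59e-05). PRKRA lies on the minus strand of chromosome 2, from 178431414 to 178451512 on GRCh38, where the median over 852 tested genes was -0.56. It shares 132 exonic bases with PJVK on the opposite strand, whose mean was 13.6 ± 3.12 in shSCR and 15.2 ± 5.00 in shLTBP1.

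TARBP2, the other double-stranded RNA-binding partner of Dicer, lies on chromosome 12, from 53500921 to 53506431. It had normalized counts of 598, 617 and 592 in shSCR and 547, 693 and 620.3 in shLTBP1. The shLTBP1 values lay on both sides of the shSCR values, and the log2 fold change was 0.03 (limma adjusted p = 0.769; 95% interval -0.17 to 0.24). Per kilobase of exon PRKRA stood at 2.81 ± 0.0422 times TARBP2 in shSCR and 1.84 ± 0.223 times in shLTBP1 (SD, n = 3 each). Those ratios did not overlap between the groups.

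DICER1, the cytoplasmic RNase III enzyme, was the most variable of the 10 genes. It lies on chromosome 14, from 95086228 to 95158010, and had normalized counts of 2761, 2021 and 2060.0 in shSCR and 2165, 1446 and 2031 in shLTBP1. One library stood high in shSCR and one low in shLTBP1, and the groups overlapped. The coefficient of variation was 18.3% in shSCR and 20.3% in shLTBP1, against 4.23% and 2.99% for XPO5. The log2 fold change of -0.28 ± 0.16 (SE) did not pass (limma adjusted p = 0.153), and its 95% interval, -0.64 to 0.07, holds falls as large as that of PRKRA. With a replicate block the fall of DICER1 passed (limma adjusted p = 0.0177), though no label pairs the libraries.

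**Figure D1:**
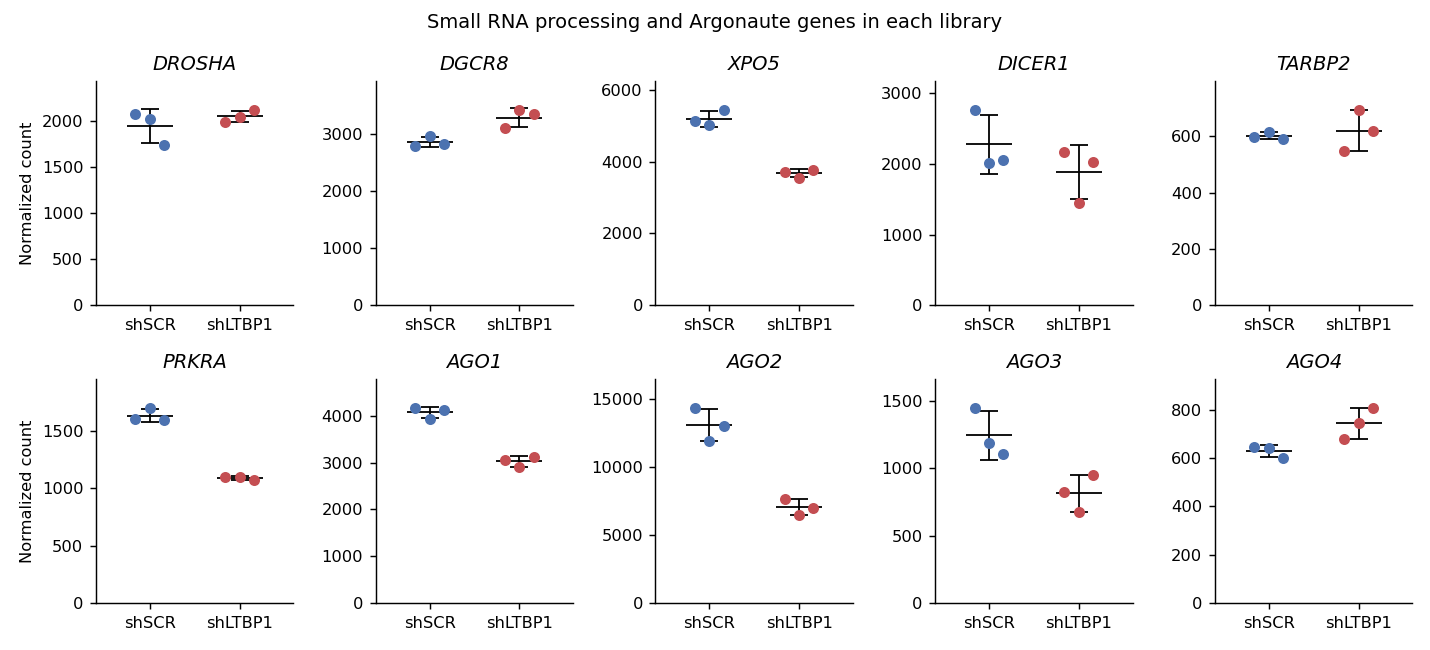
Normalized count (y axis, from 0, a separate scale per gene) of each of the 10 genes in the 3 shSCR and 3 shLTBP1 libraries; each point is a library, the long bar the mean and the error bar 1 SD. The shLTBP1 points of XPO5, PRKRA, AGO1, AGO2 and AGO3 lie below all shSCR points, those of DGCR8 and AGO4 above, and those of DROSHA, DICER1 and TARBP2 overlap them.

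AGO2 had the largest change among the 10 genes. AGO2 is the Argonaute best known for cutting targets that pair fully with the guide, the step by which a short hairpin depletes its mRNA. Its normalized counts were 14374, 11971 and 13028 in shSCR and 7656, 6469 and 7011 in shLTBP1. The highest shLTBP1 library was far below the lowest shSCR library, and the means were 13125 ± 1204 and 7045 ± 594 (SD, n = 3 each). The log2 fold change was -0.90 ± 0.08 (SE; limma adjusted p = 8.19e-06). Of all tested genes, 5.86% had a lower log2 fold change.

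AGO1, which represses targets together with GW182 proteins, fell by less. Its normalized counts were 4170.2, 3941 and 4127 in shSCR and 3049, 2907 and 3127 in shLTBP1. The groups did not overlap, at means of 4079 ± 122 and 3027 ± 112 (SD, n = 3 each), with a log2 fold change of -0.43 ± 0.05 (SE; limma adjusted p = 5.67e-05). AGO1 shares 396 exonic bases with a long noncoding RNA gene on the opposite strand that has no value here. AGO3 had normalized counts of 1448, 1184 and 1103 in shSCR and 822, 673 and 946.5 in shLTBP1. Its spread was wider than that of AGO1, with a coefficient of variation of 14.5% in shSCR and 16.8% in shLTBP1, yet its groups did not overlap either. The log2 fold change of AGO3 was -0.62 ± 0.13 (SE; limma adjusted p = 0.00309), and its limma adjusted p was 0.0621 when no filter on low values was applied and all 19960 genes entered the fit.

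AGO4 moved the other way. It had normalized counts of 647, 640.4 and 600.2 in shSCR and 678, 746 and 808 in shLTBP1. The lowest shLTBP1 library stood close above the highest shSCR library, and the means were 629 ± 25.5 and 744 ± 65.3 (SD, n = 3 each). Its log2 fold change was 0.24 ± 0.08 (SE; limma adjusted p = 0.0314). This call is weak: the limma adjusted p was 0.0544, 0.0607 and 0.105 without shSCR replicates 1, 2 and 3, 0.0587 and 0.103 without shLTBP1 replicates 2 and 3, and 0.0879 with no filter, in a range of 0.0151 to 0.105 over its alternatives.

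Set against their exonic length, the Argonaute transcripts together fell from 1268 ± 91.6 to 804 ± 44.9 normalized counts per kilobase (SD, n = 3 each). Their sum lay between 1184 and 1366 in shSCR and between 752 and 835 in shLTBP1. AGO2 made up 66.5%, 63.9% and 65.6% of that sum in shSCR and 57.9%, 54.3% and 53.7% in shLTBP1. Its share was therefore lower in every shLTBP1 library, while it remained the most abundant Argonaute transcript in each of the 6 libraries. The share of AGO1 was 23.2% ± 1.07 in shSCR and 27.1% ± 0.782 in shLTBP1, and that of AGO4 6.85% ± 0.515 and 12.8% ± 1.39 (SD, n = 3 each). The share of AGO3 was 4.63% ± 0.436 and 4.77% ± 0.609, overlapping between the groups. These shares add to a fixed total, so that a lower share of one gene raises the others.

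**Figure D2:**
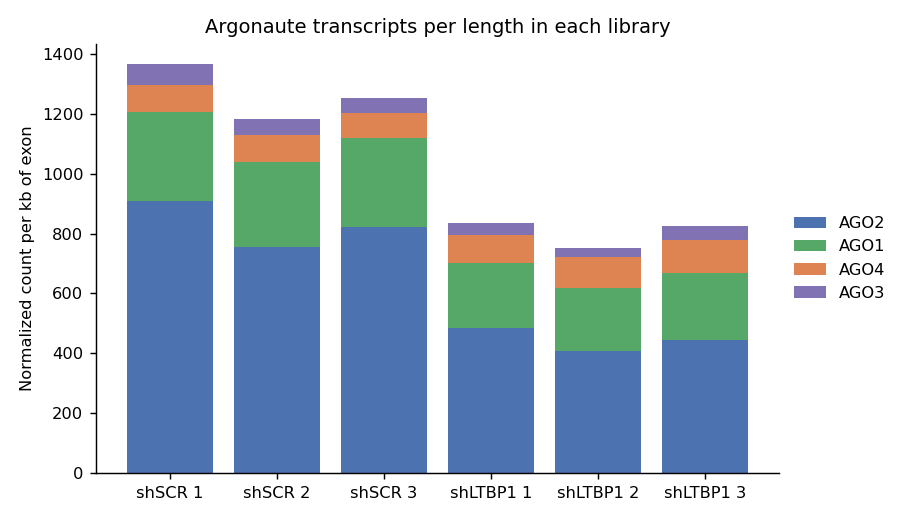
Normalized count per kilobase of exon (y axis, from 0) of AGO2, AGO1, AGO4 and AGO3, stacked for each of the 6 libraries (x axis). The stacks reach 1184 to 1366 in shSCR and 752 to 835 in shLTBP1, and the AGO2 segment is shorter in every shLTBP1 library.

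Per kilobase of exon, the order of levels differed between the groups. In shSCR it ran from AGO2 (829 ± 76.1 normalized counts per kilobase; SD, n = 3) through XPO5 (608 ± 25.7), PRKRA (414 ± 14.8), DGCR8 (391 ± 12.1), AGO1 (294 ± 8.76), DROSHA (249 ± 23.2), DICER1 (186 ± 33.9), TARBP2 (147 ± 3.18) and AGO4 (86.6 ± 3.51) to AGO3 (58.8 ± 8.52). The neighbours PRKRA and DGCR8 overlapped in that order, as did DROSHA and DICER1. In shLTBP1 the leading levels were those of DGCR8 (449 ± 22.2), AGO2 (445 ± 37.5) and XPO5 (431 ± 12.9), with DGCR8 and AGO2 overlapping and AGO2 and XPO5 overlapping. PRKRA (276 ± 4.37) overlapped DROSHA (263 ± 8.06), followed by AGO1 (218 ± 8.04), DICER1 (153 ± 31.1), which overlapped TARBP2 (152 ± 17.9), AGO4 (102 ± 8.99) and AGO3 (38.5 ± 6.46). With the longest annotated transcript as the length, XPO5 (966) came before AGO2 (900.1) and PRKRA (893) in shSCR, and the order in shLTBP1 was DGCR8 (728), XPO5 (685), PRKRA (596) and AGO2 (483). The place of AGO2 in both groups thus rests on the length used.

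AGO4, AGO1 and AGO3 lie side by side on the plus strand of chromosome 1, and adjacent genes of this cluster moved in opposite directions. On GRCh38 (GENCODE release 29) AGO4 runs from 35808172 to 35857890, AGO1 from 35869808 to 35930528 and AGO3 from 35930718 to 36072500. By these GENCODE bounds AGO4 and AGO1 are 11917 bases apart, and AGO1 and AGO3 only 189 bases. The RefSeq promoter window shown for AGO1, chr1:35882959-35883258, lies inside these bounds and not at the GENCODE start. Of the 7 other tested genes that start within 350 kb of the AGO1 start, 0 passed in limma and 0 had an unadjusted p under 0.05, their log2 fold changes lying between -0.04 and 0.14. Within 1200 kb, 8 of 25 other genes passed (10 at an unadjusted p under 0.05), between -0.48 and 1.41, where 53.1% of all tested genes passed. AGO4 stood at 1.49 ± 0.160 times AGO3 per kilobase in shSCR and 2.704 ± 0.453 times in shLTBP1 (SD, n = 3 each), with no overlap.

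**Figure D3:**
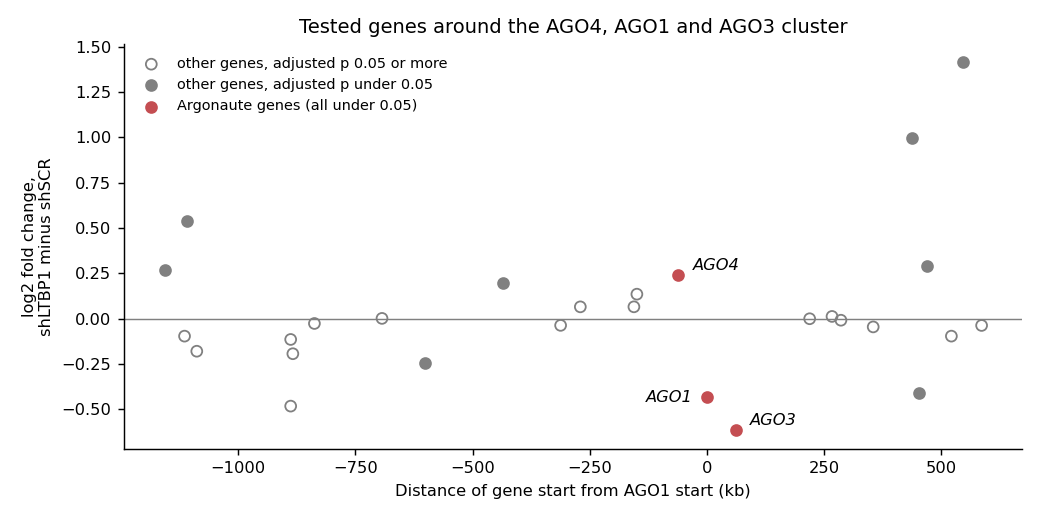
log2 fold change (y axis, shLTBP1 minus shSCR) of the tested genes around the Argonaute cluster of chromosome 1 against the distance of each gene's start from that of AGO1 in kb (x axis). Red points are AGO4 (0.24), AGO1 (-0.43) and AGO3 (-0.62), filled grey points other genes with a limma adjusted p under 0.05, and open points genes that did not pass; the 7 nearest other genes are all open.

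Whole chromosome regions differed between these groups, so each gene was also set against the 25 tested genes on each side of it. PRKRA was close to its neighbours: the median of its 50 neighbours was -0.52, and 20 of them had a lower log2 fold change than PRKRA. With that median subtracted, the log2 fold change of PRKRA was -0.06 (limma adjusted p = 0.341). With no filter, where neighbours include genes at or near 0, PRKRA was at -0.16 (limma adjusted p = 0.0177) and AGO3 at -0.62 (0.0545). The other 4 genes that fell also passed in this form: AGO2 was at -1.03 with its neighbours on chromosome 8 at a median of 0.14, AGO3 at -0.60, XPO5 at -0.44 and AGO1 at -0.40, with limma adjusted p of 4.39e-06, 0.00432, 7.21e-05 and 0.000126. For AGO2, 1 of 50 neighbours had a lower log2 fold change. In this form 25.0% of 12753 placed genes fell and 24.2% rose. The median was subtracted as a fixed value, so its own uncertainty is not part of these p-values.

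The neighbours also bear on the small rises. DGCR8, on chromosome 22 (20080232 to 20111877), lay among genes with a median of 0.12, and its own log2 fold change became 0.08 (limma adjusted p = 0.255). DROSHA, on chromosome 5 (31400497 to 31532196), lay among genes with a median of -0.21, and with it subtracted was at 0.29 (limma adjusted p = 0.00802). The genes around DROSHA are sparse, and its 50 neighbours reach over 38.1 Mb. With 10 genes on each side, a choice made after seeing this span, they covered 24.3 Mb, their median was -0.15, and DROSHA was at 0.23 (limma adjusted p = 0.024). Set against 25 on each side, DROSHA was at 0.17 without shSCR replicate 3 (limma adjusted p = 0.0487) and at 0.08 with no filter (limma adjusted p = 0.522). AGO4 was at 0.28 (limma adjusted p = 0.0179). Its call was lost with no filter (limma adjusted p = 0.0773), without shSCR replicate 3 (0.0758) and without shLTBP1 replicate 3 (0.0809). TARBP2 and DICER1 did not pass (0.00 and -0.26), though DICER1 passed with a replicate block (limma adjusted p = 0.0295).

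**Figure D4:**
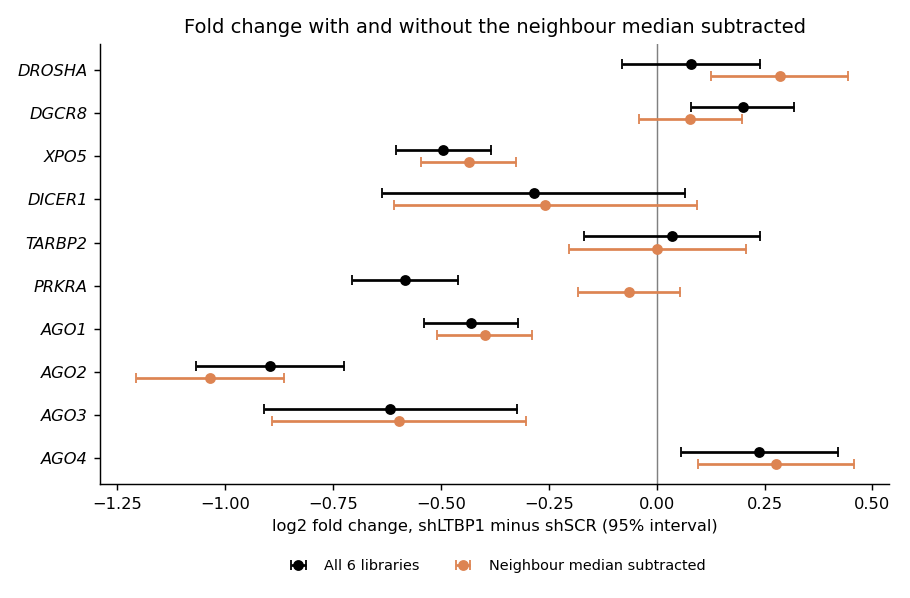
log2 fold change with its 95% interval (x axis, shLTBP1 minus shSCR) of the 10 genes (y axis), as fitted on all 6 libraries (black) and with the median of 25 tested neighbours on each side subtracted (orange). PRKRA was at -0.58 before and -0.06 after, while the intervals of AGO1, AGO2, AGO3 and XPO5 lie below 0 both times. Both fits use the same 6 libraries. The orange intervals take the neighbour median as fixed and leave out its own uncertainty.

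Genes that work with these 10 moved in both directions, where rises were 26.3% and falls 26.8% of all tested genes. Among 37 tested GW182, deadenylation and decapping genes, which carry out repression downstream of Argonaute, 10 rose and 12 fell, and their median stood at 0.00 (7 fell with the neighbour median subtracted). TNRC6B, a GW182 protein that binds Argonaute directly, fell from 3414 ± 138 to 2239.7 ± 186 (SD, n = 3 each; log2 fold change -0.61, limma adjusted p = 3.72e-05). GIGYF2, a translation repressor on chromosome 2, fell by 0.60 on the log2 scale, and was at -0.13 once the 25 tested neighbours on each side were accounted for by their median, but at -0.49 (limma adjusted p = 0.000626) with 10 on each side. The decapping subunit DCP1B rose from 126 ± 12.1 to 244 ± 14.8, and the deadenylase PAN2 by 0.66 on the log2 scale (limma adjusted p = 0.00676, and 0.0864 with no filter). Of the 12 that fell, 4 lie on chromosome 2, and these are all the tested genes of the list there. Over all genes, 653 of the 3426 falls lie on chromosome 2, where 852 genes were tested.

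Among 23 tested cofactors of RISC loading, which include the HSP90 and HSP70 chaperones, 6 fell and 0 rose by limma (median -0.08), the falls being near the 26.8% of all tested genes. At an unadjusted p under 0.05 the counts were 9 and 0, and over all 12789 tested genes 3766 and 3742. AJUBA, a LIM protein that contacts Argonaute, went from 573, 607 and 313 in shSCR to 159, 197 and 249 in shLTBP1, with no overlap but 1 low shSCR library (log2 fold change -1.26, limma adjusted p = 0.00178, and 0.0533 with no filter). TSN, a subunit of the nuclease C3PO that lies on chromosome 2, fell by 0.65; less its neighbours' median it was at -0.10 with 25 on each side and at 0.17 with 10. With no filter 3 genes of this list fell. With 25 neighbours on each side subtracted 9 fell and 1 rose, where 25.0% of all placed genes fell and 24.2% rose. With 10 on each side 8 fell and 4 rose.

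Of 20 tested Microprocessor cofactors and export genes, 8 rose and 2 fell (median 0.06), or 5 each with the neighbour median subtracted. The zinc-finger gene ZC3H10 rose from 188 ± 33.2 to 289 ± 8.07 (SD, n = 3 each). NCBP2, a subunit of the nuclear cap-binding complex on chromosome 3, rose by 0.36, but was at -0.12 with its neighbours subtracted (limma adjusted p = 0.0914). RAN, the GTPase that drives exportin-5, fell from 23162 ± 652 to 19051 ± 346, or by 0.28 on the log2 scale (limma adjusted p = 0.000253). HNRNPA2B1, an RNA-binding protein, fell by 0.15 and reversed to 0.18 with its neighbours subtracted (limma adjusted p = 0.0273 and 0.0112). Its call was also lost with no filter, upper quartile or quantile scaling, no trend, or without any 1 of shSCR replicates 2 and 3 and shLTBP1 replicate 3, with a limma adjusted p of up to 0.128.

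Of 20 tested tailing, editing and turnover genes, 7 rose and 6 fell (median -0.06). The uridylyltransferase TUT7 rose by 0.44 on the log2 scale but lies among genes of chromosome 9 with a median of 0.59, and reversed to -0.15 with that median subtracted (limma adjusted p = 0.0486). The exonuclease ERI1 rose from 1617 ± 13.2 to 2108 ± 129 (SD, n = 3 each). The editing enzyme ADARB1 fell from 929 ± 170 to 513 ± 67.8, and lies on chromosome 21, where the median was -0.39. Its log2 fold change was -0.85, and -0.39 (limma adjusted p = 0.0324) with its neighbours subtracted. PNPT1, an exonuclease gene on chromosome 2, fell by 0.65 and was at -0.08 with its neighbours subtracted. The count that rose was 2 without shLTBP1 replicate 3, and 4 with the neighbours subtracted or without any 1 of shSCR replicates 2 and 3 and shLTBP1 replicate 1.

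Of 20 genes of the germline PIWI pathway, 5 were tested, and 4 were at 0 in every library. By limma 3 rose and 0 fell, also at an unadjusted p under 0.05. PIWIL4 rose from 34.9 ± 12.2 to 64.6 ± 7.73 and TDRD7, a tudor protein gene, from 566 ± 13.3 to 930 ± 70.3 (SD, n = 3 each). The log2 fold change of PIWIL4 was 0.92 (limma adjusted p = 0.015), and its call was lost without shLTBP1 replicate 2 (limma adjusted p = 0.0525) and with no filter (0.0885). TDRD7 was at 0.71, and at 0.24 (limma adjusted p = 0.0284) less the median of its neighbours on chromosome 9, 0.48. The list count was 1 without shLTBP1 replicate 2.

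**Figure D5:**
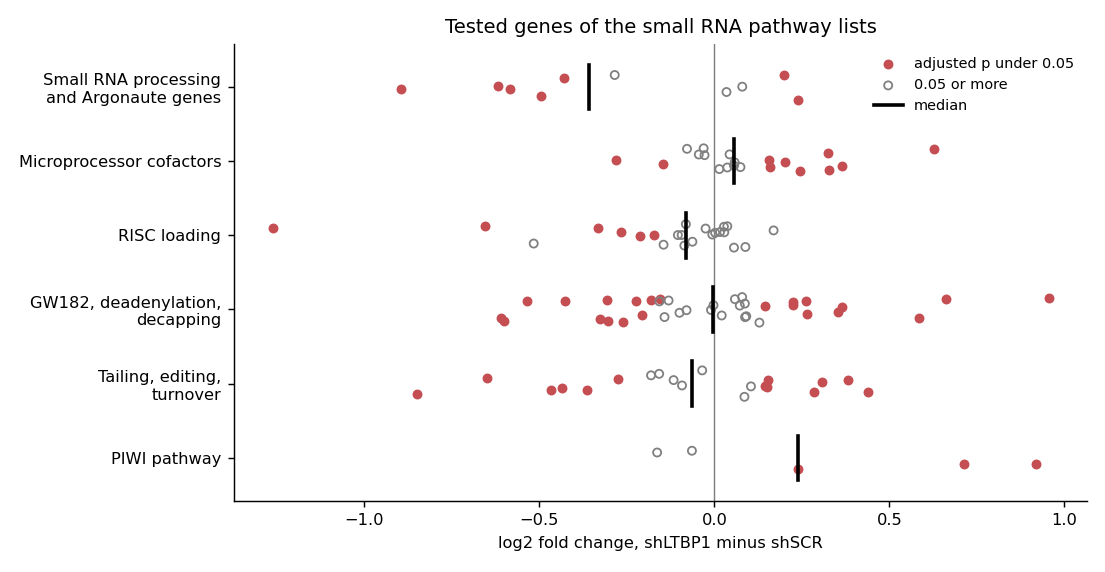
log2 fold change (x axis, shLTBP1 minus shSCR) of each tested gene in the 10 small RNA processing and Argonaute genes and in 5 lists of related genes (y axis, points spread vertically for sight only). Red points had a limma adjusted p under 0.05, open points did not, and the black bar is the median, which is -0.36 for the 10 genes and between -0.08 and 0.24 for the 5 lists.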

How the data were processed

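Total RNA of 6 libraries was sequenced after directional library preparation, per the labels' protocols. The submitters' processing notes name DESeq2, RSEM 1.3.1, STAR 2.7.3a, FastQC 0.10.1 and the build hg38; for annotation, strand setting and filters nothing is given in the sources used here. Signal values were deposited: per-gene counts after DESeq2 normalization by the authors, going by the table's name. Of values up to 5 reads, 27.3% to 29.2% were whole multiples (within 0.05) of the commonest value near 1, so whole reads were not recovered and no count model was used.

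Values were tested as log2(value + 1) with limma 3.58.1 (R 4.3.3) over all 12789 genes with a mean of at least 10, with group as the only term, trended moderation (5.6 prior degrees of freedom), two-sided p-values and Benjamini-Hochberg adjustment at 0.05. Positions and exon lengths came from GENCODE release 29 (19872 of 19960 genes matched), and sequences from RefSeq (GRCh38.p14). The 10 genes, the 5 lists and the marker lists were written from general knowledge with earlier results of these data known. From each list, up to 2 genes that rose most and 2 that fell most among those past the threshold are named. POLR1C, PJVK and TRMT2A were named afterwards, as overlapping genes.

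Alternatives were pseudocounts of 0.5 and 5, no filter, a mean of at least 50, trimmed-mean (TMM), upper quartile and quantile scaling, untrended or robust moderation, a replicate block, each library left out, neighbours subtracted, and the longest transcript as length. Sequences of AGO2 are not reported here.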

Additional observations from a re-analysis of the deposited data

How the results depend on the processing

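AGO1, AGO2 and XPO5 kept their direction and their call under all 18 alternatives, AGO3 under all but no filter, and PRKRA under all but the 2 that subtract neighbours. Over all genes, rises stayed between 2820 and 3687 and falls between 2813 and 3435. Among the 10 genes, 1 rose with no filter, and 1 or 2 with any 1 library left out; relative to neighbours, 0 rose with no filter and 1 or 2 with a library left out. Lists changed by more than 1.5 times as follows. Of the Microprocessor cofactors, 5 (25 neighbours) or 4 (10 neighbours) rose; 1 fell with no filter, upper quartile scaling, quantile normalization or no trend, 5 fell with 25 neighbours, and 1 or 2 with a library left out. Of the RISC loading genes, 1 (25 neighbours) or 4 (10 neighbours) rose, 0 or 1 with a library left out, and 3 fell with no filter. Of the GW182 list, 7 fell with 25 neighbours. Of the turnover list, 4 rose with either neighbour setting and 2 to 5 with a library left out. Of the PIWI list, 1 fell with no filter, no trend or 10 neighbours, 2 with 25, and 1 to 3 rose with a library left out. With neighbours subtracted, log2 fold changes reversed for NCBP2 (-0.12 with 25 or 10), HNRNPA2B1 (0.18 for both), TUT7 (-0.15 and -0.26) and TSN (0.17 with 10). With the longest transcript as length, AGO1 made up 22.1% and 26.01% of Argonaute transcripts in shSCR and shLTBP1, and AGO2 66.6% in shSCR. Beyond the neighbours' own medians and the fewer or added genes, the cause was not tested. No label says that replicate numbers pair the libraries. Over all tested genes, deviations of same-numbered libraries correlated at -0.00925, 0.0584 and -0.00074, and those of differently numbered libraries at -0.0397 to 0.0445. These correlations do not settle whether same-numbered libraries are paired. A replicate block gave 3347 rises and 3408 falls; among the 10 genes 2 rose and 6 fell, the added one being DICER1 (log2 fold change -0.28, limma adjusted p = 0.0177). Read depth is not in the normalized values, so counting error could not be given.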
